A study of Homo sapiens with 24 samples.

Results

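The mRNAs of 46 translation initiation and elongation factors were followed in HepG2 cells, a human liver cancer line, before and after transcription was stopped. The genes were taken by name from a fixed list of elongation factors, eIF1 to eIF6 subunits, 4E-binding proteins and cytoplasmic poly(A)-binding proteins, and they are 46 of the 58676 gene rows counted. Of these, 45 had enough reads to be tested, among 13136 genes tested in all. The rule for choosing them names genes and uses no level or half-lifetime, though it was set with earlier results of these data known.

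The study asked how the mRNA-binding proteins IGF2BP1, IGF2BP2 and IGF2BP3 affect mRNA decay. HepG2 cells received a non-targeting siRNA (siControl) or a pre-designed siRNA against one of these 3 genes (siIGF2BP1, siIGF2BP2, siIGF2BP3). Transfected cells were re-seeded into smaller plates, actinomycin D, which blocks transcription, was given at 5 µg/ml for 0, 3 or 6 h before a common time of collection, and polyadenylated RNA was sequenced with ERCC spike-in RNA added per mass of total RNA. With 4 siRNAs, 3 times and 2 replicates there were 24 libraries. There is 1 siRNA arm for each target, and IGF2BP protein was not measured in these files, so a difference between siRNAs cannot be told apart from an effect of that product on other genes. The labels do not say whether the replicates were separate cultures, and p-values measure only the spread between these samples.

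Translation factors carry the ribosome through its cycle. Initiation factors of the eIF2, eIF3 and eIF4 groups bring the initiator tRNA, the small subunit and the capped mRNA together, and elongation factors then deliver aminoacyl-tRNAs and move the ribosome along the coding sequence. Many elongation factor mRNAs, some initiation factor mRNAs and the mRNAs of ribosomal proteins begin with a C followed by an unbroken run of pyrimidines, the 5′ terminal oligopyrimidine (TOP) motif. TOP mRNAs are very abundant and long-lived, and their translation is set by mTOR complex 1 and by LARP1, which binds the capped motif. A core list of 10 known TOP mRNAs (EEF1A1, EEF1B2, EEF1D, EEF1G, EEF2, EIF3E, EIF3F, EIF3H, EIF4B and PABPC1) was kept apart from the other members.

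The starts below show the motif as annotated, which is found both in core TOP members and in members outside that list. They were taken from RefSeq on GRCh38.p14 as windows of 30 bases, with 10 bases before the annotated start and 20 from it. Capitals mark a C at the start with the pyrimidine run that follows it, called a TOP start here when at least 4 pyrimidines follow the C. The set holds every member with a TOP start.
EEF1A1, chr6:73521013-73521042, minus strand: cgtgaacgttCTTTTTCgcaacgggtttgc
EEF1B2, chr2:206159885-206159914, plus strand: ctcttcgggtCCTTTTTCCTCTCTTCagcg
EEF2, chr19:3985444-3985473, minus strand: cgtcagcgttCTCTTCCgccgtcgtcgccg
EIF2S3, chrX:24054946-24054975, plus strand: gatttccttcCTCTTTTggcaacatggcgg
EIF3D, chr22:36529147-36529176, minus strand: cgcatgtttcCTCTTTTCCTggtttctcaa
EIF3F, chr11:7987327-7987356, plus strand: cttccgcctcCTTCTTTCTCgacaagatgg
EIF3K, chr19:38619178-38619207, plus strand: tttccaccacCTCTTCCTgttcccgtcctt
EIF3M, chr11:32583821-32583850, plus strand: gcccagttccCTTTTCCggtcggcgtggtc
EIF4A2, chr3:186783567-186783596, plus strand: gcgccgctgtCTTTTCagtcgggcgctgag
EIF4B, chr12:53006446-53006475, plus strand: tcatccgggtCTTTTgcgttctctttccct

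The next starts lack the motif and were picked from members that changed at 0 h or were lost quickly after actinomycin D. Members with a TOP start, listed above, also changed or were lost quickly. EIF2S3, EEF2, EIF4B and EIF4A2 changed at 0 h with siIGF2BP1, and EIF4A2 was also lost quickly.
EIF1AX, chrX:20141819-20141848, minus strand: gagtcgcggcgccatttgctgccgccgagc
EIF1B, chr3:40309697-40309726, plus strand: cattttgtgcgagaagccgcagcgccgcct
EIF4E, chr4:98929114-98929143, minus strand: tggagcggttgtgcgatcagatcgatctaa
EIF4EBP2, chr10:70404135-70404164, plus strand: gccttcgcccgcttccggtcgtcgtcgtcg

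A start was found for 36 of the 46 members, 50 starts in all, and 10 members had a TOP start. EEF1D, EIF2S2, EIF3A, EIF3E, EIF3G, EIF3H, EIF3L, EIF4EBP1, PABPC1 and PABPC4 had no entry. Of all 35116 RefSeq starts 4.07% had a TOP start, and of the 9799 tested genes with an entry 7.42% did, against 47 of the 63 ribosomal protein genes with one. Among the core TOP members 5 of the 6 with an entry had a TOP start, the exception being EEF1G, elongation factor 1 gamma. EIF2S3, EIF3D, EIF3K, EIF3M and EIF4A2 had a TOP start without being on the core list. The run was longest in EEF1B2, with 16 bases, and shortest in EIF4B, with 5. The annotated start is that of the reference, not a start measured in these cells.

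The libraries held 31843248 to 74252042 reads in genes and 50889 to 119088 reads in ERCC RNA, and replicates of a group correlated at 0.9971 to 0.9986 over log2 levels. The targeted genes stood at 15.9% to 21.1% of siControl for IGF2BP1, 20.9% to 26.2% for IGF2BP2 and 24.7% to 35.5% for IGF2BP3 over the 3 times. Of the 9 hepatocyte markers, 8 were at 258 CPM (counts scaled to a common library total) or more in every library, and TTR was at 34.8 to 86 CPM. Of the 5 markers of other cells, PTPRC, COL1A1, COL1A2 and PECAM1 were at 1.41 CPM or less, and ACTA2, a smooth muscle actin, was at 26.1 to 45.2 CPM. Of 6 short-lived control mRNAs, 6 fell in siControl by 3.1 to 6.31 on the log2 scale over 6 h.

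Counting was limited for 2 members. EEF1G had 0 reads in all 24 libraries, and 99.5% of its exon bases are shared with an overlapping gene model, ENSG00000255508, which itself held 8 to 35 reads. EIF4A1 (ENSG00000161960.14, chr17:7572824-7579006), the main cap-complex RNA helicase, overlaps SENP3-EIF4A1 over 100% of its exon bases and held 7 to 450 reads. Its 13 pseudogene rows held 20.9% to 95.3% of the reads of the family, so its values are uncertain. EEF1A1, which has 49 pseudogene rows, had up to 81855 reads in them, which were 10.3% to 13.8% of the combined reads. Overlap also touched EIF3L (58.5% of exon bases), EIF6 (26.6%) and PABPC1 (2.0%).

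Before actinomycin D, levels differed widely between members. EEF1A1 (ENSG00000156508.17, chr6:73489308-73525587), which delivers aminoacyl-tRNA to the ribosome, stood at 4550 and 4460 TPM in the siControl replicates, computed here from the counts as reads per kilobase of the canonical transcript, scaled to a common total in each library. Next came its nucleotide exchange partner EEF1B2 at 2820 and 2790, then EEF2 (ENSG00000167658.15, chr19:3976056-3985463), which drives translocation, at 2150 and 2110. The gaps between these 3 genes were wider than the gaps between replicates, yet EEF2 (2740) passed EEF1A1 (2580) and EEF1B2 (1940) when the union of all exons was used as the length, so the top 3 are the same genes under the lengths tried but their order is not settled.

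PABPC1, the main cytoplasmic poly(A)-binding protein, followed at 1170 and 1170 on the canonical length, and EIF5A, which relieves ribosome stalling, at 955 and 975. The scaffold EIF4G2, which works without the cap-binding protein, stood at 682 and 671, and the helicase cofactor EIF4B at 551 and 541. The cap-complex scaffold EIF4G1 followed at 484 and 488. The lowest members were the eIF2B subunits EIF2B3 (42.4 and 42.9) and EIF2B2 (10.7 and 11), parts of the exchange factor that reloads eIF2 with GTP, and EIF4A1 (8.03 and 8.0). The median member stood at 215 by the canonical length, 153 by the longest transcript and 128 by the union of exons. EIF3E, an eIF3 subunit, moved most with the length, from 319 to 28.0.

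**Figure D1:**
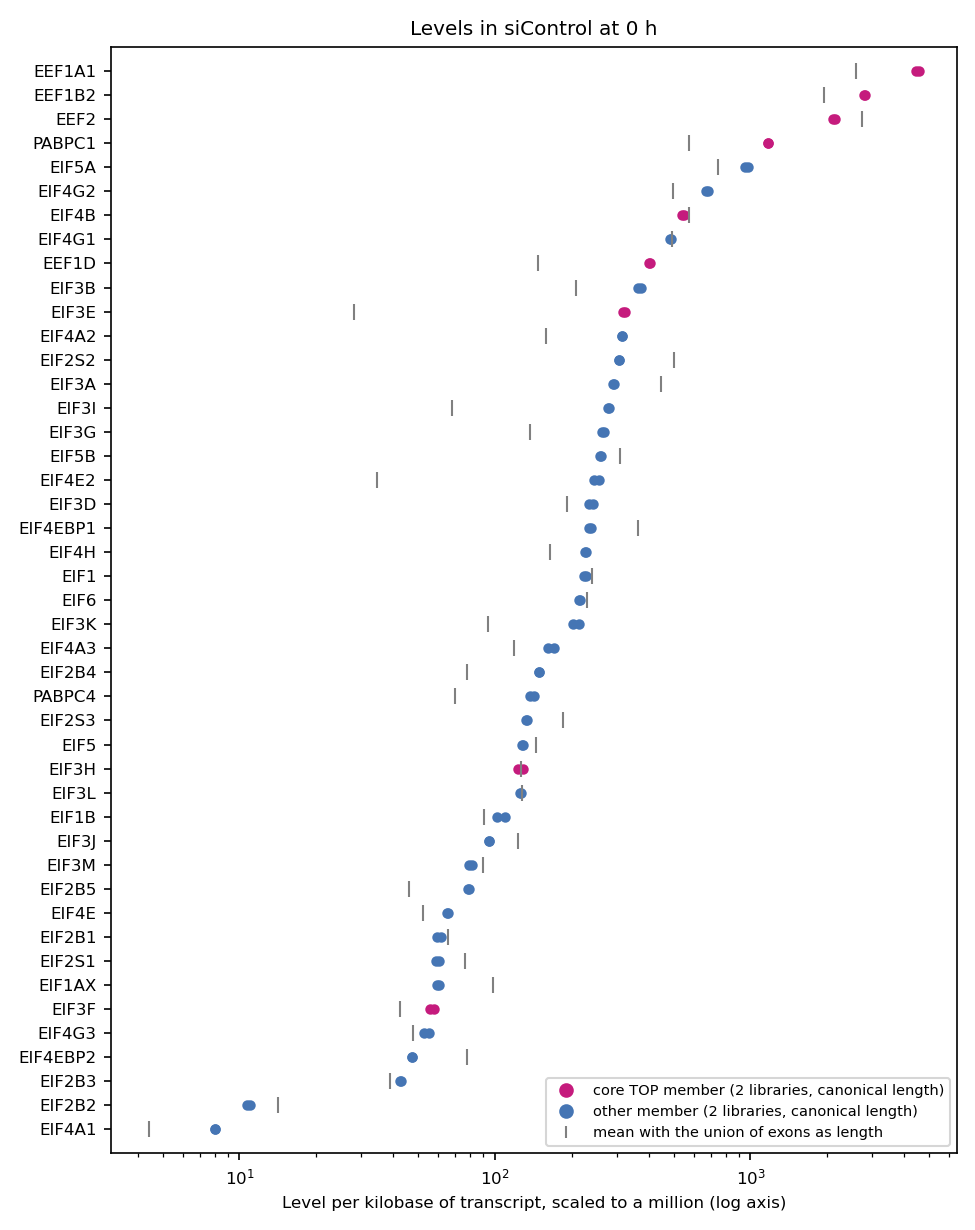
Level of each tested member in siControl at 0 h, per kilobase of transcript and scaled to a common total (TPM, log axis), with the 2 libraries as points on the canonical length and a tick for the mean on the union of exons. EEF1A1, EEF1B2, EEF2 and PABPC1 lie to the right, and EIF2B2 and EIF4A1 lie below all other members.

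The comparisons at 0 h asked which members differed in level between siRNAs before decay was measured. PABPC4, a poly(A)-binding protein related to PABPC1, was higher in each knockdown than in siControl, and EIF2S3, EIF4EBP2 and EIF4G3 were lower upon knockdown of IGF2BP1. By edgeR's quasi-likelihood test with Benjamini-Hochberg adjustment below 0.05 over all genes, 6 members rose and 9 fell with siIGF2BP1, where 15.9% of all genes passed (9.43% up and 6.5% down). With siIGF2BP2, 4 members rose and 1 fell where 12.1% of all genes passed (6.65% up and 5.47% down). With siIGF2BP3, 4 members rose and 0 fell where 9.39% passed (4.93% up and 4.47% down). The members' share, 15 of 45, was above the background for siIGF2BP1 and close to it for the other knockdowns. That background takes in every gene from 1 CPM up and was not matched to the members' levels. Smaller differences can pass in genes with more reads, so the excess is not read as a trait of translation factors. The 3 comparisons share the siControl libraries. Single libraries weighed on the smaller counts: in siIGF2BP2, 3 and 1 members passed without siControl replicate 1 and 2, and 2 and 2 without siIGF2BP2 replicate 1 and 2, while in siIGF2BP3 2 passed without siControl replicate 1, siControl replicate 2 or siIGF2BP3 replicate 2.

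PABPC4 (ENSG00000090621.13, chr1:39560709-39576790) stood at 166 and 171 TMM-scaled CPM in the siControl replicates, 230 and 231 in siIGF2BP1, 266 and 258 in siIGF2BP2 and 246 and 249 in siIGF2BP3. Every knockdown library lay above both siControl libraries. The log2 difference was 0.45 ± 0.032 (SE, edgeR adjusted p = 1.55e-13) for siIGF2BP1, 0.64 ± 0.032 (edgeR adjusted p = 4.3e-18) for siIGF2BP2 and 0.55 ± 0.032 (edgeR adjusted p = 7.37e-16) for siIGF2BP3. Its paralogue PABPC1 was at 1290 and 1280 in siControl, 1330 and 1330 in siIGF2BP1, 1330 and 1380 in siIGF2BP2 and 1360 and 1370 in siIGF2BP3. PABPC1 rose by 0.08 with siIGF2BP2 and by 0.09 with siIGF2BP3 on the log2 scale (edgeR adjusted p = 0.0376 and 0.0234), calls that were lost on the ERCC scale. The siIGF2BP2 call of PABPC1 was also lost whichever of the 4 libraries was left out, with a value of 0.04 without siIGF2BP2 replicate 2 (edgeR adjusted p = 0.55), and the siIGF2BP3 call without either siControl replicate or siIGF2BP3 replicate 2.

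EIF2S3 (ENSG00000130741.10, chrX:24054946-24078810), the gamma subunit of eIF2 that binds GTP and the initiator tRNA, had 178 and 175 TMM-scaled CPM in siControl and 130 and 131 in siIGF2BP1. The siIGF2BP2 libraries were at 171 and 167 and the siIGF2BP3 libraries at 166 and 171, so the siIGF2BP1 pair lay below all others. It fell by 0.44 ± 0.036 on the log2 scale with siIGF2BP1 (edgeR adjusted p = 8.3e-12) and differed by -0.06 in each of the other knockdowns (edgeR adjusted p = 0.315 and 0.352). The other eIF2 subunits moved differently, with EIF2S1 up by 0.15 (edgeR adjusted p = 0.0164) and EIF2S2 not passing the test.

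EIF4EBP2 (ENSG00000148730.6, chr10:70404145-70428618), a repressor that binds eIF4E and is controlled by mTOR, was at 136 and 137 in siControl, 102 and 99.2 in siIGF2BP1, 133 and 137 in siIGF2BP2 and 128 and 126 in siIGF2BP3. Again the siIGF2BP1 libraries were the lowest. Its log2 difference in siIGF2BP1 was -0.44 ± 0.040 (edgeR adjusted p = 6.56e-11). The scaffold EIF4G3 (ENSG00000075151.20, chr1:20806292-21177285) was at 130 and 135 in siControl, 102 and 106 in siIGF2BP1, 119 and 124 in siIGF2BP2 and 125 and 123 in siIGF2BP3. EIF4G3 fell by 0.35 ± 0.037 with siIGF2BP1 (edgeR adjusted p = 2.77e-09) and by 0.13 with siIGF2BP2 (edgeR adjusted p = 0.0156) on the log2 scale. With siIGF2BP3 its difference was -0.10 (edgeR adjusted p = 0.0884).

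Among the start-site factors, EIF1AX (ENSG00000173674.10, chrX:20124525-20141838), which helps the small subunit scan, was at 103 and 100 in siControl, 114 and 117 in siIGF2BP1, 115 and 111 in siIGF2BP2 and 115 and 123 in siIGF2BP3. Its siControl libraries were the lowest, and it rose by 0.19, 0.16 and 0.23 on the log2 scale (edgeR adjusted p = 0.00628, 0.0316 and 0.00122). EIF1, which guards start codon choice, rose with siIGF2BP2, from 205 and 201 to 225 and 229, by 0.16 (edgeR adjusted p = 0.0016). Its paralogue EIF1B was at 41.5 and 38.8 in siControl and 32.7 and 31.3 in siIGF2BP1, and fell by 0.32 ± 0.076 (edgeR adjusted p = 0.00215). The siIGF2BP2 values of EIF1B, 37.89 and 40.03, and the siIGF2BP3 values, 35.8 and 41.1, overlapped siControl in range.

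Of the cap-binding group, EIF4G2 rose with siIGF2BP1 by 0.16 (edgeR adjusted p = 3.64e-05), from 997 and 979 to 1110 and 1100, and EIF4E2, a cap-binding relative of eIF4E that takes part in repression, rose by 0.20 (edgeR adjusted p = 0.000786). EIF4E, the cap-binding protein, was at 61.4 and 60.5 in siControl and 66.9 and 71.3 in siIGF2BP3, a rise of 0.18 (edgeR adjusted p = 0.0201). EIF5A rose by 0.12 with siIGF2BP1 (edgeR adjusted p = 0.00371), and the eIF2B subunit EIF2B1 fell by 0.17 (edgeR adjusted p = 0.0219). On the ERCC scale, 5 members kept their call in siIGF2BP1: PABPC4, EIF2S3, EIF4EBP2, EIF4G3 and EIF1B. PABPC4 alone kept it in siIGF2BP2, and PABPC4 and EIF1AX kept it in siIGF2BP3. When each library was left out in turn, 8 of the 15 siIGF2BP1 calls were kept throughout (PABPC4, EIF2S3, EIF4EBP2, EIF4G3, EIF4G2, EIF4E2, EIF4B and EEF2). EIF1B lost its call without siControl replicate 1, EIF1AX without siControl or siIGF2BP1 replicate 2, EIF2S1 without siControl replicate 2 or siIGF2BP1 replicate 1, and EIF2B1, EIF5A and EIF3E without siControl or siIGF2BP1 replicate 1. EIF4A2 kept its call without siIGF2BP1 replicate 2 and lost it without each of the other libraries. In siIGF2BP2, EIF1 lost its call without siControl or siIGF2BP2 replicate 2, EIF1AX whichever of the 4 libraries was left out and EIF4G3 without 2 of them, and EIF4E lost its siIGF2BP3 call without 3 of the 4.

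**Figure D2:**
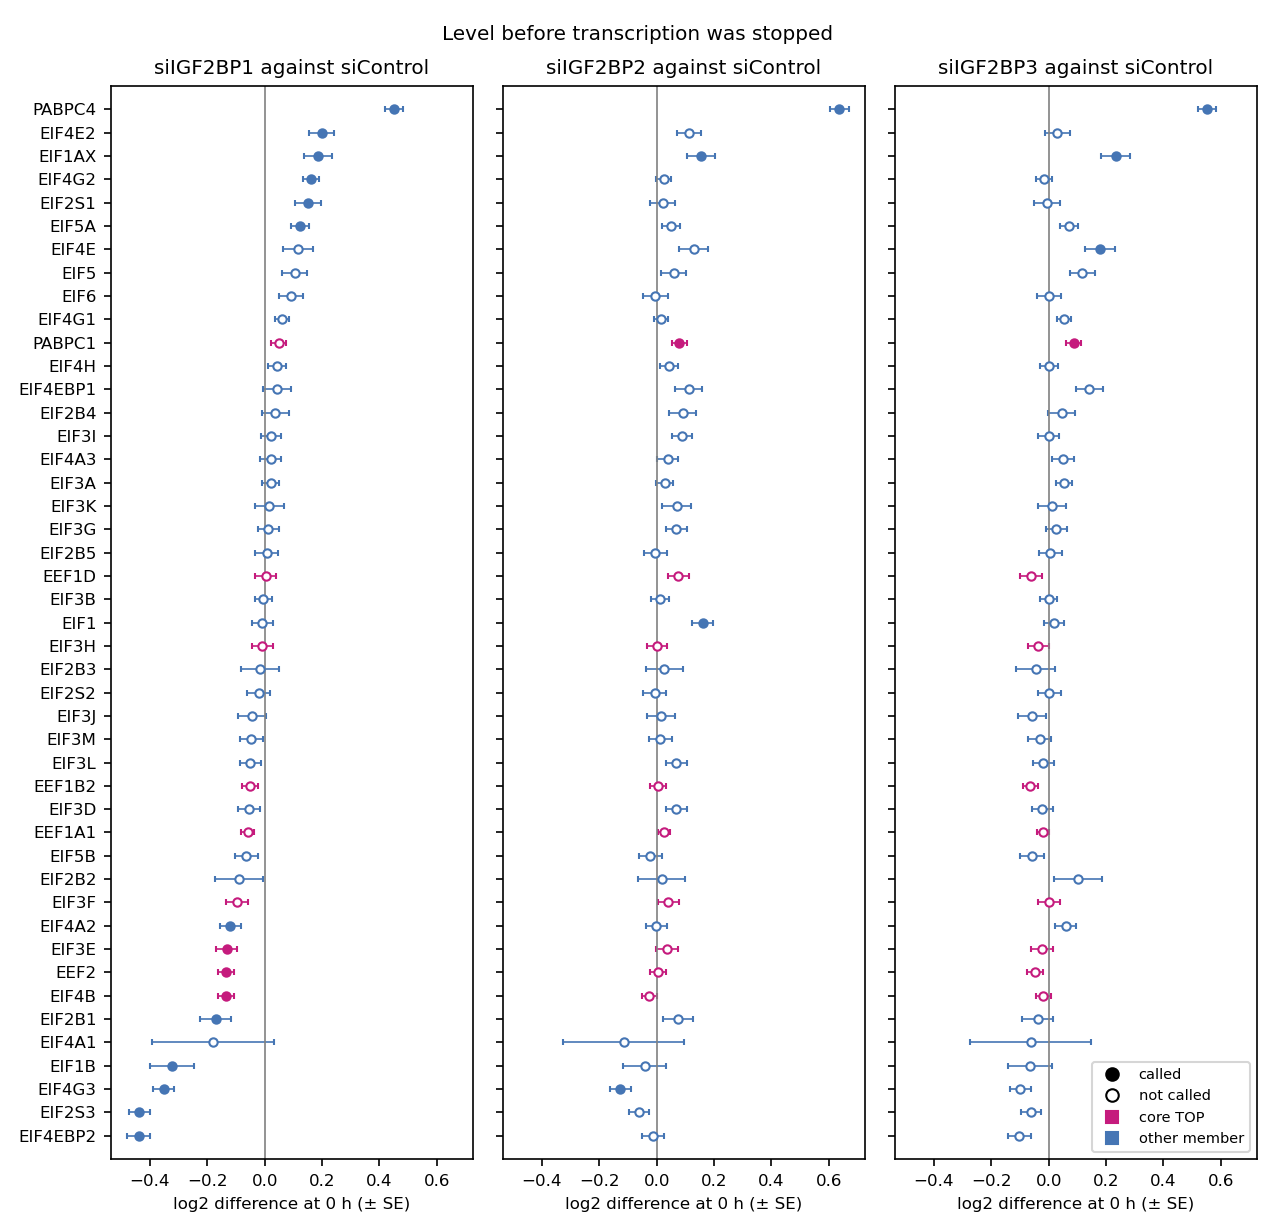
Log2 difference of each member at 0 h between each knockdown and siControl on the TMM scale, with SE from the fit on 2 libraries a group. Filled points passed the test, core TOP members are magenta, and PABPC4 is the rightmost point in every panel (0.45, 0.64 and 0.55).

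The core TOP members differed by small amounts at 0 h. With siIGF2BP1, 0 of the 9 tested rose and 3 fell, where 9.43% of all genes rose and 6.5% fell. The core median was -0.06 against 0.01 over all genes tested. The 3 core members that fell were EIF4B (819 and 802 in siControl, 731 and 745 in siIGF2BP1, log2 difference -0.14 ± 0.027, edgeR adjusted p = 0.000263), EEF2 (2610 and 2560, then 2310 and 2400, -0.13 ± 0.028, edgeR adjusted p = 0.000441) and EIF3E (252 and 245, then 224 and 229, -0.13, edgeR adjusted p = 0.0109). None of these 3 calls held on the ERCC scale. Among the 10 members with a TOP start 0 rose and 4 fell with siIGF2BP1, with a median of -0.08, the added ones being EIF2S3 and EIF4A2 (log2 difference -0.12, edgeR adjusted p = 0.0205). For comparison, 0 of the 79 ribosomal protein mRNAs rose and 8 fell with siIGF2BP1, with a median of -0.03.

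EEF1A1 held 6170 and 6020 TMM-scaled CPM in siControl, 5730 and 5960 in siIGF2BP1, 6170 and 6230 in siIGF2BP2 and 6010 and 6020 in siIGF2BP3, and passed the test in no knockdown against siControl. EEF1B2 ranged from 829 to 879 over the 8 libraries at 0 h and EEF1D, another exchange subunit, from 302 to 341. The eIF3 subunits EIF3F and EIF3H ranged from 136 to 156 and from 182 to 196. None of these 4 passed the test against siControl.

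The knockdowns were also compared with each other. siIGF2BP1 against siIGF2BP2 had 2 members higher and 15 lower where 18.7% of all genes passed (9.65% up and 9.04% down), and siIGF2BP1 against siIGF2BP3 had 3 higher and 9 lower where 14.3% passed (8.31% up and 6% down). siIGF2BP2 against siIGF2BP3 had 2 higher and 0 lower, where 9.19% passed (4.91% up and 4.28% down). EIF2S3 was lower by 0.38 in siIGF2BP1 than in each of the others (edgeR adjusted p = 2.75e-10 and 6.65e-10), and EIF4EBP2 was lower by 0.43 and 0.34 (edgeR adjusted p = 1.09e-10 and 6.38e-08). Of the core TOP members, 0 were higher and 5 lower in siIGF2BP1 than in siIGF2BP2, with a median of -0.08. The median of all genes in that comparison is -0.12 on the ERCC scale, and there 13 of the 15 lower calls were kept and neither of the higher ones. PABPC4 was lower by 0.19 in siIGF2BP1 than in siIGF2BP2 (edgeR adjusted p = 2.18e-05). The count against siIGF2BP2 was 10 without siIGF2BP1 replicate 1 and 9 without siIGF2BP2 replicate 2, that against siIGF2BP3 was 6 without siIGF2BP1 replicate 1, and that between siIGF2BP2 and siIGF2BP3 was 0 without either siIGF2BP2 replicate or siIGF2BP3 replicate 2 and 1 without siIGF2BP3 replicate 1.

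**Figure D3:**
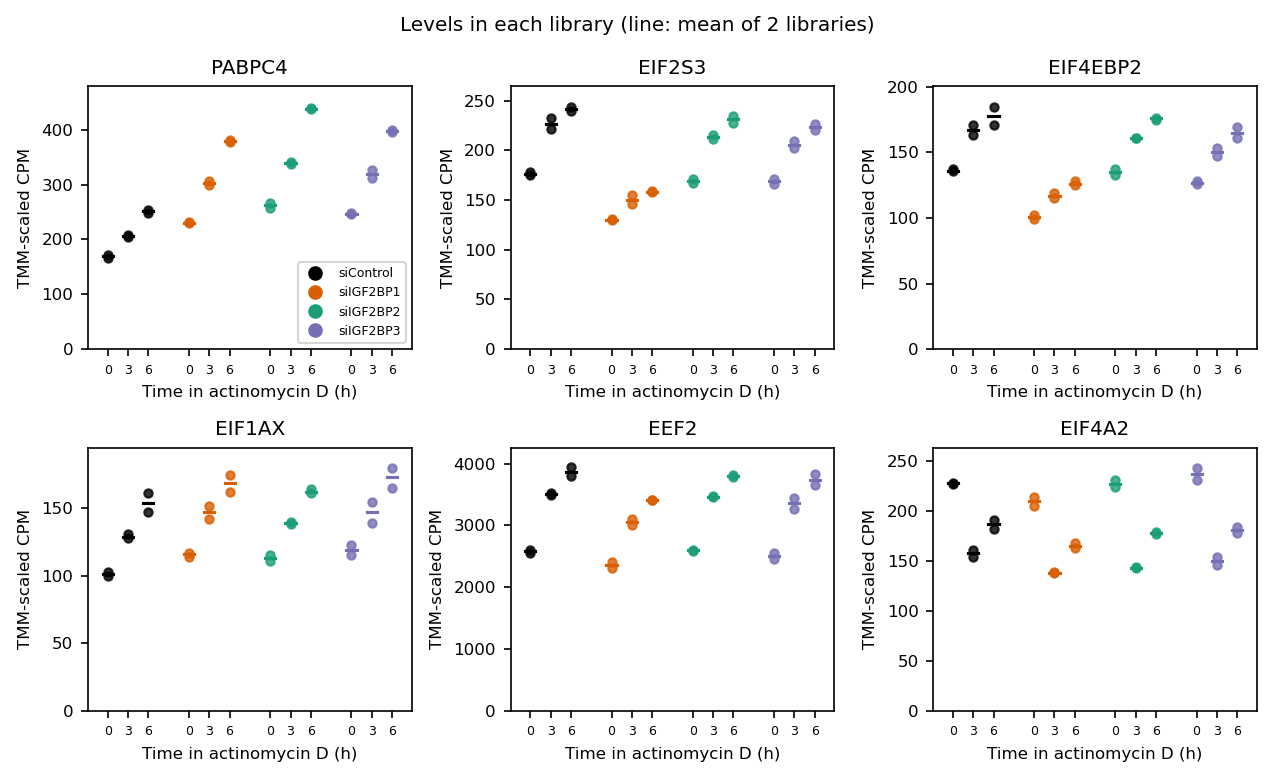
TMM-scaled CPM of 6 members in every library, by siRNA and hours of actinomycin D, with a line at the mean of the 2 libraries. The siIGF2BP1 points of EIF2S3 and EIF4EBP2 lie below those of the other siRNAs at each time, and PABPC4 lies above siControl in every knockdown at each time.

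These orders were also seen after actinomycin D. At 6 h PABPC4 was at 249 and 253 TMM-scaled CPM in siControl, 377 and 381 in siIGF2BP1, 439 and 437 in siIGF2BP2 and 396 and 399 in siIGF2BP3. EIF2S3 was at 240 and 244 in siControl and 158 and 159 in siIGF2BP1 at 6 h, and EIF4EBP2 at 171 and 185 and at 125 and 128. The rise with time in all of them is on a scale relative to other mRNAs, since TMM holds the typical gene constant at each time.

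Loss was therefore measured against the ERCC reads, as the log2 change over 6 h of a straight line through the 3 times. The spike-in was added per mass of total RNA, so these values are transcript per total RNA. On this scale the median of all genes in siControl was -0.88 and that of the members -0.49, and 35 of the 45 members lay above the median of all genes. Of the members 0 rose and 35 fell by edgeR with Benjamini-Hochberg adjustment, where 80.6% of all genes passed (0.251% up and 80.3% down). The direction depends on the scale: on the TMM scale, where the median of all genes is -0.02, 33 members were called higher and 6 lower, and scaled to library size, where it is -0.34, 19 were higher and 13 lower. The median of all genes is therefore given beside the members.

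Loss was smaller in the median core TOP member than in the median of the other members. The core median was -0.15, with 0 called higher and 4 of 9 lower. For the members outside the core list it was -0.56, and 31 of 36 fell, where 80.3% of all genes did. The difference between these medians was 0.40 on the ERCC scale and 0.24 when the members were split by the RefSeq start instead. It was also 0.40 on the TMM scale, but a change of scale shifts all genes by nearly the same amount. That match was therefore bound to occur and is not a second result. The 79 ribosomal protein mRNAs had a median of 0.03, with 1 called higher and 3 lower. The 2 classes of members overlapped, since EIF3I (0.04), EIF5A (-0.04) and EIF4EBP1 (-0.05), which are outside the core list, lay above the core members EIF3E (-0.52) and EIF4B (-0.53). A wider TOP list adds EIF2S3, EIF3A and EIF3L, which differed in siControl. The half-lifetime was 4.5 h for EIF3A and 19.9 h for EIF2S3, and EIF3L showed no fall. EIF3M, which has a TOP start, was at 7.29 h, beside medians of 28.6 h over the 10 members with a TOP start and 6.76 h over all genes. At 6 h the median core TOP member stood at 90.0% of its 0 h level (range over members 69.1% to 103%), the median member outside the list at 68.0%, and the median of all genes at 54.1%.

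EEF1A1 was at 105% and 105% of its 0 h level in the siControl replicates at 3 h and at 96.7% and 91.6% at 6 h. Its log2 change was -0.09 ± 0.083, which did not pass the test (edgeR adjusted p = 0.343), and the siControl 0 h replicates themselves lay at 108% and 92.4% of their mean. Without the second of these, EEF1A1 fell by 0.21 and EIF3H by 0.24 on the log2 scale (edgeR adjusted p = 0.0258 and 0.00785). EEF1D was at 110% and 93.1% at 6 h, EIF3F at 98.0% and 90.1%, and EIF3H at 92.4% and 87.6%, and none of them passed the test. PABPC1, at 106% and 106% at 3 h and 104% and 101% at 6 h, did not pass it either (log2 change 0.04, edgeR adjusted p = 0.655).

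The 4 core TOP members that fell were not alike. EEF1B2 was at 89.9% and 83.2% at 6 h (log2 change -0.21 ± 0.086, edgeR adjusted p = 0.0311) and EEF2 at 86.8% and 77.0% (-0.29 ± 0.082, edgeR adjusted p = 0.003). EEF1B2 lost its call without siControl 0 h replicate 1, 6 h replicate 1 or 6 h replicate 2 (edgeR adjusted p = 0.174, 0.072 and 0.276), and EEF2 without 6 h replicate 2 (edgeR adjusted p = 0.0764). EIF3E was at 69.4% and 70.0% (-0.52, edgeR adjusted p = 2.57e-05) and EIF4B at 72.0% and 66.1% (-0.53, edgeR adjusted p = 9.44e-07). EIF3E and EIF4B thus lay near the median of the other members, with half-lifetimes of 15.1 and 14.2 h, while the others kept most of their level. Outside the core list, EIF3I and EIF3K, 2 subunits of eIF3, were at 106% and 98.6% and at 105% and 94.7% of their 0 h level at 6 h.

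Fast loss was found in members of several groups. EIF1B fell to 46.6% and 42.8% at 3 h and 19.4% and 21.4% at 6 h in siControl, a log2 change of -2.30 ± 0.12 (edgeR adjusted p = 2.8e-13). Its half-lifetime, from the means of the 3 times, was 2.6 h, with 2.3 to 3.01 h over the 8 ways of taking 1 library per time. The related EIF1 changed by -0.93. EIF4E was at 68.9% and 65.6% at 3 h and 29.9% and 28.6% at 6 h, with a half-lifetime of 4.11 h (3.61 to 4.81 h). EIF3A, the largest scaffold subunit of eIF3, was at 38.6% and 36.1% at 6 h, with a half-lifetime of 4.5 h (3.99 to 5.19 h). The eIF2B subunit EIF2B4 was at 37.0% and 33.0% at 6 h, with a half-lifetime of 4.69 h (4.06 to 5.59 h). These 4 were lost faster than the median gene, and the ranges of EIF4E, EIF3A and EIF2B4 overlapped.

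EIF4A1 was at 5.24% and 2.85% of its 0 h level at 6 h, with the uncertainty of its counting given above. Of all genes 80.3% fell in siControl, with a median of -0.88. Among the roles, 6 of 6 start-site factors fell (median -0.73), as did 3 of 3 eIF2 subunits (-0.64) and 5 of 5 eIF2B subunits (-0.60). In the eIF4A group 5 of 5 members fell (-0.89), as did 5 of 5 cap-binding proteins and scaffolds (-0.57). With so few members in a role, these counts are not set apart from the share of all genes. Of the 12 eIF3 subunits 7 fell (median -0.40), from EIF3A at -1.42 to EIF3I at 0.04, so subunits of this complex differed in loss by more than their SEs. Of the elongation factors 2 of the 4 tested fell (-0.15), EIF5A (-0.04) did not pass the test, and of the 4E-binding proteins EIF4EBP2 fell by 0.49 while EIF4EBP1 was at -0.05. EIF4H, EIF5B, EIF3B, EIF2B5 and EIF3J, which passed no test at 0 h, fell by 0.47, 0.52, 0.59, 0.60 and 0.67, and EIF5, which triggers GTP hydrolysis by eIF2, fell by 1.11.

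**Figure D4:**
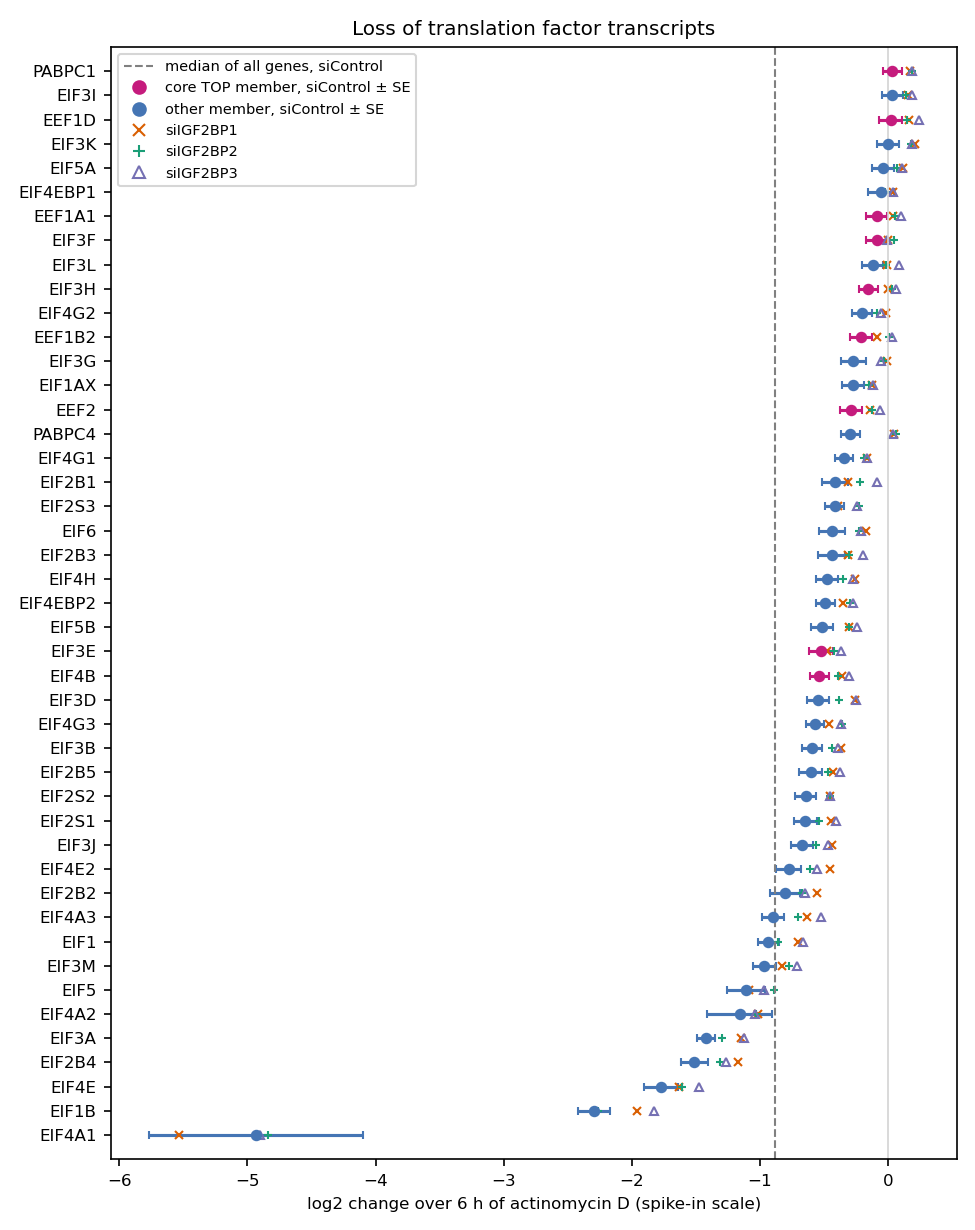
Log2 change of each member over 6 h of actinomycin D on the spike-in scale, with siControl ± SE as filled points and the knockdowns as crosses, pluses and triangles. PABPC1 and EIF3I lie near 0, EIF1B (-2.30) and EIF4E (-1.77) lie left of the median of all genes (-0.88, dashed), and EIF4A1 rests on few reads.

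Upon knockdown, 2 members rose and 27 fell in siIGF2BP1, where 71.7% of all genes passed (2.69% up and 69.1% down), 1 rose and 28 fell in siIGF2BP2, where 73.8% passed (2.44% up and 71.3% down), and 3 rose and 25 fell in siIGF2BP3, where 70.1% passed (2.91% up and 67.2% down). Those that rose on the ERCC scale were PABPC1 in each knockdown (0.17, 0.19 and 0.19), EIF3K in siIGF2BP1 (0.21), and EIF3I (0.19) and EEF1D (0.24) in siIGF2BP3. The order of the members was much alike in the 4 siRNAs. Over the 45 members, which share libraries and reference counts, the siControl changes and those of siIGF2BP1, siIGF2BP2 and siIGF2BP3 had Pearson's r of 0.991, 0.998 and 0.996 and Spearman's rho of 0.971, 0.986 and 0.989. EIF4A1, which had few reads and by far the largest fall, is among the 45 and weighs on Pearson's r. Over 44 members, the change in siControl had a Spearman's rho of -0.111 with transcript length and 0.331 with the level at 0 h. These are descriptions across genes, which are not independent replicates. The median half-lifetime of the members was 15.0, 21.0, 15.1 and 22.9 h for siControl and knockdown of IGF2BP1, IGF2BP2 and IGF2BP3, beside 6.76, 8.32, 7.11 and 8.59 h over all genes. Without siControl 0 h replicate 1 or 2 the siControl median was 27.0 or 11.1 h, so the difference between siRNAs is within what 1 library moves. A half-lifetime could be computed for 36, 32, 38 and 31 of the 45 members, since the rest showed no fall, and members without a fall count as longest.

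Loss was not steady in EIF4A2 (ENSG00000156976.16, chr3:186783205-186789897), a helicase paralogue of EIF4A1. It fell to 51.6% and 49.4% in the first 3 h and then stood at 45.6% and 44.1% at 6 h. Loss from 3 to 6 h was compared with loss from 0 to 3 h on the log2 scale, and EIF4A2 lost 0.81 ± 0.15 more in the early interval (edgeR adjusted p = 9.13e-07). On the same ERCC scale EIF4A2 was at a mean of 50.8% at 3 h and 49.5% at 6 h in siIGF2BP1, 45.3% and 49.1% in siIGF2BP2 and 48.4% and 48.9% in siIGF2BP3, beside 50.5% and 44.8% in siControl. Early against late loss was tested in siControl only. EIF4E had the opposite shape, with a difference of 0.63 (edgeR adjusted p = 0.00111) toward less early loss, as had EIF3G (0.47, edgeR adjusted p = 0.0118) and EIF2B4 (0.47, edgeR adjusted p = 0.0184). Without siControl 3 h replicate 1 these 3 calls were lost (edgeR adjusted p = 0.0857, 0.14 and 0.242), while that of EIF4A2 was kept. Of the 45 members 3 were called toward less early loss and 2 toward more, the other being EIF4A1, where 12.6% of all genes passed (1.64% toward less and 10.9% toward more). On the TMM scale 33 members were called toward less early loss and 3 toward more, where 2388 and 1775 of all 13136 genes were, so the split depends on the scale. Without siControl 0 h replicate 1 the count of members was 14, without 3 h replicate 1 it was 2, and without 3 h replicate 2 or 6 h replicate 2 it was 3.

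**Figure D5:**
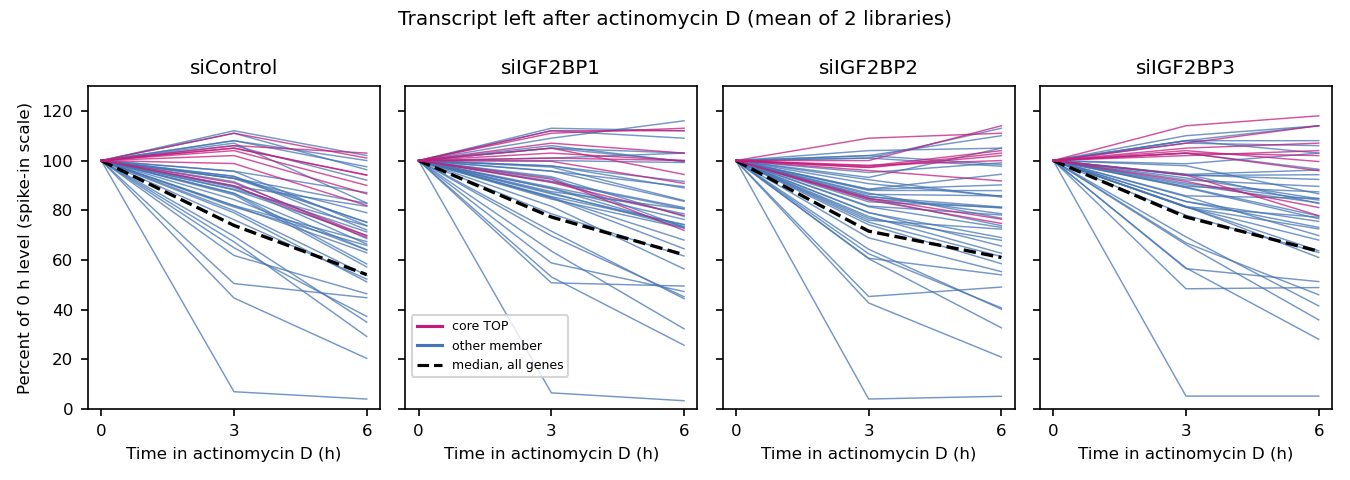
Level of each member as a percent of its 0 h mean on the spike-in scale, by siRNA, against hours of actinomycin D, as means of 2 libraries. Core TOP members (magenta) have a median of 90.0% at 6 h in siControl (range 69.1% to 103%), above the dashed median of all genes at 54.1%.

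Whether knockdown altered the loss was asked by the difference in slope from siControl. No member passed the edgeR test in siIGF2BP1, siIGF2BP2 or siIGF2BP3 (0, 0 and 0 of 45), as DESeq2 also found, while 6, 2 and 10 members had an unadjusted p below 0.05. Of all genes 0.0152%, 0% and 0.0228% passed. The median slope difference of the members was 0.16, 0.15 and 0.21, beside 0.19, 0.17 and 0.22 over all genes, so the members' slopes shifted with those of the whole table. On the TMM scale both sets of medians lay between -0.05 and -0.01. PABPC4 had log2 slope differences of 0.34 ± 0.10, 0.36 ± 0.10 and 0.33 ± 0.10 with siIGF2BP1, siIGF2BP2 and siIGF2BP3 (edgeR adjusted p = 0.423, 0.643 and 0.277), which are 0.15, 0.19 and 0.11 above the median of all genes. It stood at 84.3% and 78.9% of its 0 h level at 6 h in siControl, 103% and 103% in siIGF2BP1, 98.0% and 111% in siIGF2BP2 and 106% and 99.4% in siIGF2BP3. EIF2S3 and EIF4EBP2, which were lower at 0 h upon IGF2BP1 knockdown, had slope differences of 0.02 and 0.14 there, and neither passed the test. Without the second siControl replicate at 0 h, 5 members passed in siIGF2BP3: EIF4B, PABPC4, EIF3D, EIF3A and EIF4A3. Over all genes 542 passed in that refit, against 3 with every library.

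Half-lifetimes of the fast members were set side by side between siRNAs. EIF1B was at 2.6, 3.17, 2.55 and 3.46 h in siControl, siIGF2BP1, siIGF2BP2 and siIGF2BP3. The median over all genes was 6.76, 8.32, 7.11 and 8.59 h in that order. The range of EIF1B over library combinations in siIGF2BP3 (3.06 to 4.03 h) lay above that in siControl. Such combinations reuse the same libraries, so their ranges are not a test. In the same order EIF3A was at 4.5, 5.48, 4.52 and 5.27 h and EIF2B4 at 4.69, 5.62, 4.64 and 5.16 h. EIF4E was at 4.11, 4.09, 3.92 and 4.49 h, and EIF4A2 was at 3.84, 4.04, 3.62 and 3.84 h. No slope difference of these 5 passed the test. The share of gene reads in core TOP members rose from 1.40% at 0 h to 1.71% at 3 h and 1.85% at 6 h in siControl, and that of ribosomal proteins from 4.96% to 6.48% and 7.44%, while the members outside the core list stayed at 0.889%, 0.924% and 0.905%. These shares are relative to all gene reads. On the ERCC scale at 6 h in siControl, the median core TOP member stood at 90.0% of 0 h and the median of all genes at 54.1%. The spike-in was added per mass of total RNA, so these values measure neither the number of cells nor the RNA per cell. In bulk samples, fewer cells of a kind and less RNA per cell cannot be told apart.

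Other genes of the pathway were taken from a list of 40, of which 38 were tested. With siIGF2BP1, 7 rose and 2 fell, where 15.9% of all genes passed, with siIGF2BP2 6 rose and 3 fell, where 12.1% did, and with siIGF2BP3 4 rose and 1 fell, where 9.39% did. GSPT1, the release factor eRF3, rose by 0.18, 0.14 and 0.12 on the log2 scale (edgeR adjusted p = 4.21e-05, 0.00102 and 0.00515), and LARP1, which binds the TOP motif, rose by 0.16, 0.15 and 0.13 (edgeR adjusted p = 0.000188, 0.000798 and 0.0032). PAIP1, a partner of the poly(A)-binding proteins, fell by 0.28 with siIGF2BP1 (edgeR adjusted p = 3.63e-06), and PELO, a ribosome rescue factor, fell by 0.42 with siIGF2BP2 (edgeR adjusted p = 0.0153). PDCD4, which blocks eIF4A, rose by 0.23 with siIGF2BP1 and fell by 0.22 with siIGF2BP2 (edgeR adjusted p = 0.00784 and 0.0189). Unlike those of the members, these pathway calls were not checked on the ERCC scale or with single libraries left out. Over 6 h in siControl, 36 of the 38 fell on the ERCC scale, where 80.3% of all genes did, with a median of -0.75 beside -0.49 for the members, and their median half-lifetime was 8.49 h.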

How the data were processed

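RNA from HepG2 cells was sequenced as single-end reads of 100 bases from polyadenylated RNA with a stranded kit. Per the submitters' processing notes and the study's methods, the authors trimmed reads with Trimmomatic 0.39, aligned them to hg38 with HISAT2 2.1.0 and counted them with HTSeq on GENCODE 29. The deposited files hold whole-number counts per gene, 1 file a library. Rows of reads assigned to no gene took 13.551% to 17.064% of a library and stayed out, as did 45 chromosome Y copies of shared genes. The 92 ERCC rows gave the spike-in totals, with a counting error of 0.29% to 0.443% (CV). Of the gene IDs, 469 had no symbol. Positions are from GENCODE 44 and were not moved between builds.

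Genes with at least 1 CPM in at least 2 libraries were tested (13136). Levels at 0 h were compared with edgeR 4.0.16 (R 4.3.3), quasi-likelihood, TMM, over 12 group means and 24 libraries. Loss and slope used the same test scaled to ERCC totals, with 1 slope for each siRNA, and DESeq2 1.42.0 was an alternative. Half-lifetime is the natural log of 2 over the mean of the decay rates from 0 to 3 h and 0 to 6 h of ERCC-scaled means. p-values were adjusted by Benjamini-Hochberg over all genes tested. Scripts were tested on simulated data. The alternatives were other scalings and filters, DESeq2, a replicate block, single libraries left out, other lengths and TOP lists.

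All members are named. Values by library are given for the core TOP members, the called members with the smallest adjusted p at 0 h, the shortest- and longest-lived, the highest and lowest levels and those with unsteady loss. The members and lists were chosen with earlier results of these data known.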

Additional observations from a re-analysis of the deposited data

Results flagged for a closer look

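Members whose level at 0 h differed between 2 knockdowns, by a test of that difference itself (edgeR's quasi-likelihood test, Benjamini-Hochberg adjusted p below 0.05), are given as log2 differences on the TMM scale. siIGF2BP1 against siIGF2BP2 gave EIF4EBP2 -0.43, EIF2S3 -0.38, EIF1B -0.28, EIF2B1 -0.24, EIF4G3 -0.22, PABPC4 -0.19, EIF1 -0.17, EIF3E -0.17, EEF2 -0.14, EIF3F -0.14, EIF3D -0.12, EIF3L -0.12, EIF4A2 -0.12, EIF4B -0.11 and EEF1A1 -0.08, with EIF4G2 at 0.14 and EIF2S1 at 0.13. siIGF2BP1 against siIGF2BP3 gave EIF2S3 -0.38, EIF4EBP2 -0.34, EIF1B -0.26, EIF4G3 -0.25, EIF4A2 -0.18, EIF4B -0.12, EIF3E -0.11, PABPC4 -0.10 and EEF2 -0.09, with EIF4G2 at 0.18, EIF4E2 at 0.17 and EIF2S1 at 0.16. siIGF2BP2 against siIGF2BP3 gave EIF1 0.14 and EEF1D 0.14. The siIGF2BP1 libraries enter 29 of these 31 differences, so they are not independent of each other. When each library was left out in turn, 9 of the 17, 6 of the 12 and 0 of the 2 calls were kept throughout. Without siIGF2BP1 replicate 1, EIF3F against siIGF2BP2 was -0.07, EIF3D -0.08 and EEF1A1 -0.05. Without siIGF2BP3 replicate 2, EIF1B against siIGF2BP3 was -0.17, and EEF1D in siIGF2BP2 against siIGF2BP3 was 0.08. None of these 5 then passed the test. EIF2B1 was at 48.6 and 50.7 TMM-scaled CPM in siIGF2BP1 and 58.6 and 58.8 in siIGF2BP2. With 2 libraries a group, no group was large enough for a test of single outlying samples.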

How the results depend on the processing

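Levels at 0 h depended on the scaling and on pooling times. Members called went, on the ERCC scale, from 15 to 5 for siIGF2BP1 against siControl, from 5 to 1 for siIGF2BP2, from 4 to 2 for siIGF2BP3, from 12 to 5 for siIGF2BP1 against siIGF2BP3 and from 2 to 0 for siIGF2BP2 against siIGF2BP3. Averaged over the 3 times they were 26, 10 and 19 against siControl, and 27, 23 and 17 between knockdowns. A minimum of 5 CPM left 3 for siIGF2BP2, and a fit to the 4 libraries compared gave 7 for siIGF2BP3. On the ERCC scale the share of called genes that were higher moved from 59.2% to 39.0%, 54.9% to 76.9% and 52.4% to 82.4% for siIGF2BP1, siIGF2BP2 and siIGF2BP3, and from 51.6% to 15.0% and 58.1% to 11.2% for siIGF2BP1 against siIGF2BP2 and siIGF2BP3. In siControl on the TMM scale, the library size scale and the TMM scale with the 0 to 6 h change (the last chosen after seeing the data), log2 loss turned upward for EEF1A1 (0.78, 0.46, 0.78), EEF1B2 (0.66, 0.34, 0.66), EEF2 (0.58, 0.26, 0.58), EIF3E (0.35, 0.031, 0.35), EIF3F (0.78, 0.46, 0.78), EIF3H (0.71, 0.39, 0.71) and EIF4B (0.34, 0.016, 0.34). Early against late loss went from 5 calls (3 toward less early loss, 2 toward more) to 36 (33 and 3) on the TMM scale. The median half-lifetime in siIGF2BP2 was 19.6 h from 0 and 6 h and 19.7 h from the slope, against 15.1 h. The median level was 153 by the longest transcript and 215 by the canonical one (chosen after seeing the data), against 128, and TOP members stood 0.24 above the rest by the RefSeq start, against 0.40. Leaving out each library in turn gave 10 to 16, 1 to 3 and 2 to 4 calls against siControl, 9 to 15, 6 to 10 and 0 to 1 between knockdowns, 31 to 38, 23 to 30, 25 to 31 and 23 to 28 for loss, 0 to 0, 0 to 0 and 0 to 5 for slope differences and 2 (without siControl 3 h replicate 1) to 14 (without siControl 0 h replicate 1) for early against late loss. It gave median half-lifetimes of 11.1 (without siControl 0 h replicate 2) to 27.0 (without siControl 0 h replicate 1), 17.2 to 26.4, 13.4 to 17.2 and 20.3 to 32.9 h and median levels of 129 to 130. Across the siRNAs, replicate numbers gave no general pairing (correlations of -0.045 to 0.216). Within siIGF2BP3 all 3 pairs of times were above 0.1 (0.126, 0.113 and 0.164). However, siControl at 6 h reached 0.216 with siIGF2BP3 at 3 h and 0.136 with siIGF2BP3 at 6 h. The measure therefore does not show whether the numbers pair the siIGF2BP3 times. In siIGF2BP3 the block moved loss from 28 to 30 calls and left 0 slope differences. A replicate block gave 16, 5, 5, 17, 12 and 2 calls at 0 h, 35, 30, 30 and 30 for loss, 0 for each slope difference and 7 for early against late loss. The cause of these moves was not tested.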
